A study of Mus musculus with 4 samples.

Results

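The Cpe and Gpx2 patch is a compact area of the STAM20w mouse liver section in which 5 genes are abundant together. Spots were ranked by a score, the UMIs of Cpe, Slc7a11, Gpx2, Nkd1 and Maoa per 10000 UMIs of the spot, averaged over the spot and the kept spots touching it. The 250 spots with the highest scores made up the patch, out of 2833 kept spots in STAM20w and 10627 in the series, and they were set against the other 2583 kept spots of STAM20w. A UMI (unique molecular identifier) marks 1 captured RNA molecule, and spots under 500 UMIs or under 250 detected genes were left out. The median score was 10.2 in the patch and 0.519 in the other spots. The lowest scores inside were 5.218 and 5.240, and the highest outside were 5.213 and 5.210, so the boundary cuts a gradient. The 5 genes chose the spots and are given only as a description: Cpe, carboxypeptidase E, stood at 106 CPM in the patch and 4.83 CPM in the other spots, Slc7a11, the cystine carrier, at 101 CPM in the patch and 5.92 in the other spots, Gpx2, a glutathione peroxidase, at 99.7 CPM in the patch and 7.88 in the other spots, Nkd1, an inhibitor of Wnt signalling, at 142 CPM in the patch and 11.1 in the other spots and Maoa, monoamine oxidase A, at 627 CPM in the patch and 52.5 in the other spots. CPM, counts per 1000000, divide the UMIs of a gene by all UMIs of the summed spots. When each of the 5 was left out of the score in turn, 227 to 245 of the 250 spots stayed, and the gene left out was 11.5 to 21.1 times as abundant in the spots so chosen as in the rest. The 5 genes were chosen with earlier results of these data known. High values of the gene left out were thus largely set by that choice and are a description.

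The series holds 1 Visium section, a slide assay with barcoded capture spots, for each of STAM20w, STAM16w, DEN22w and DEN30w. STAM is a metabolic model of liver cancer on fatty liver with diabetes, and DEN stands for diethylnitrosamine, a carcinogen, given with CCL4, carbon tetrachloride, which scars the liver. The labels give fresh frozen liver and the weeks 20, 16, 22 and 30, without saying whether weeks count age, and give no strain, genotype or sex and no statement that the sections came from separate animals. Every value for the patch comes from 1 section: spots are not replicates, no test was made between spot classes, and the 95% intervals (exact Poisson for CPM, exact binomial for ratios) cover counting error only. Because the patch was picked with these counts, its differences from the other spots are descriptions. A spot can hold several cells, and fewer cells of a type cannot be told apart from less RNA per cell. Tissue images and any tumour annotation were not used here.

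Wnt signals released by the endothelium of the central vein keep the adjacent, pericentral hepatocytes in a state of active β-catenin, in which they make glutamine and metabolise drugs, whereas periportal hepatocytes make urea and glucose. Axin2, Lgr5, Notum, Rnf43, Znrf3, Nkd1 and Sp5 are known as targets of β-catenin, many of which damp the pathway again, and activating mutations of β-catenin occur in hepatocellular tumours of mouse and human. NRF2 is a transcription factor that is stabilised under oxidative or electrophilic stress and switches on genes of glutathione synthesis, NADPH supply, detoxification and iron storage; Slc7a11 and Gpx2, which served in the score, are among its known targets.

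The patch spans array rows 19 to 60 and columns 87 to 121 and falls into 5 pieces of 237, 8, 3, 1 and 1 spots, the last of them 19 steps from the largest. Of the contacts of its spots, 88.5% lay within the patch, and its deepest spots were 7 steps from the border, a step being the distance to a touching spot. The small pieces held 17, 4, 7 and 2 scoring UMIs, in that order, and 8 patch spots held no scoring UMI of their own, entering through their neighbours. Patch spots were deeper, with a median of 24181.5 UMIs and 5110.5 genes, against 11936 UMIs and 3378 genes in the other spots, and the patch held 8.82% of the kept spots but 14.7% of the UMIs. Mitochondrially encoded genes took 3.09% of UMIs in the patch and 3.77% in the other spots, and ribosomal protein genes took 10.6% in the patch and 7.33% in the other spots. The part of depth and of these shares in the differences below was not tested as a cause; with other spots matched on their UMI totals, 202 genes were at least 2-fold higher and 147 at least 2-fold lower, against the 158 and 141 given below.

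**Figure D1:**
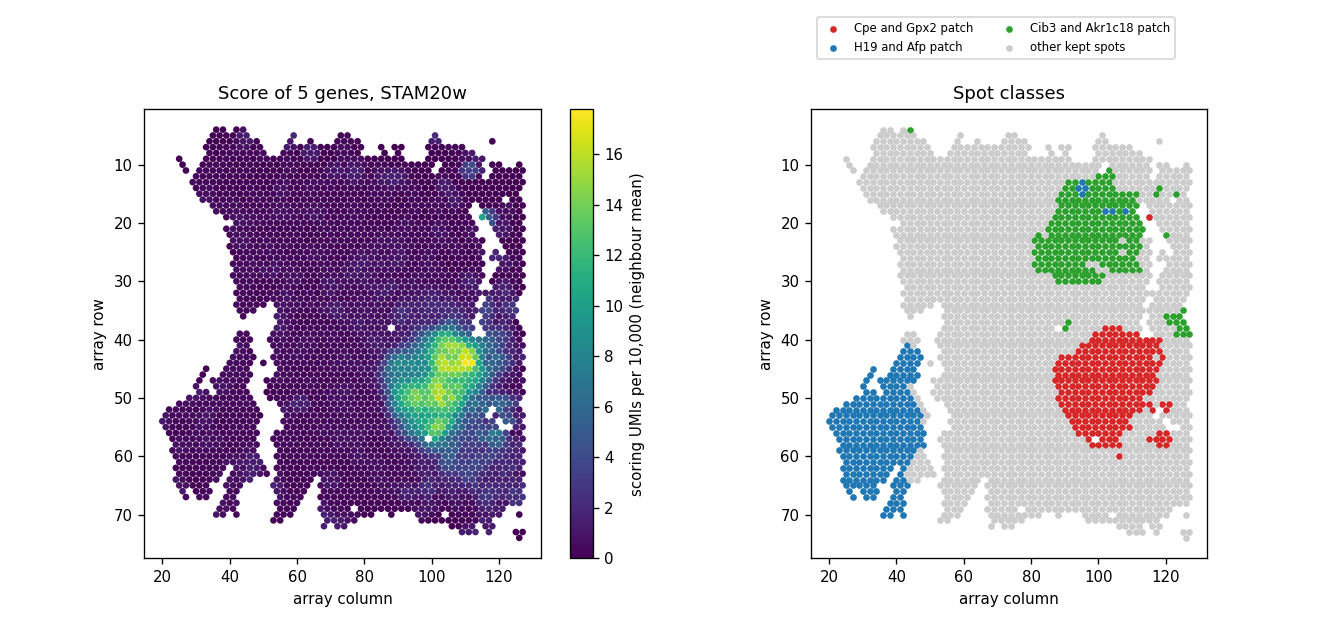
Kept spots of STAM20w at their array columns and rows, coloured on the left by the score (scoring UMIs per 10,000, mean of a spot and its neighbours) and on the right by class. The high scores form 1 main body of 237 spots around array columns 87 to 121, apart from the H19 and Afp patch and the Cib3 and Akr1c18 patch.

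The area was proposed as tumour-like, and markers of liver tumours were mixed in it. Hepatocyte genes were abundant: Alb, serum albumin, stood at 13625 CPM in the patch and 24974 CPM in the other spots, and Apoe, an apolipoprotein, at 15516 CPM in the patch and 18243 in the other spots . Of 20 liver tumour and progenitor markers, 14 reached 5 CPM in the higher class. Of the 14, 5 were at least 2-fold higher and 1 was at least 2-fold lower, and 3 in all lay below 0. Over all 10141 genes at that level, 5.47% were at least 2-fold higher and 3.36% at least 2-fold lower. The median log2 ratio of the 14 was 0.49, against 0.13 over all 10141 genes, of which 62.5% lay above 0. The marker at least 2-fold lower was Cd24a, with a log2 ratio of -1.01 (-1.33 to -0.71). Prom1, a progenitor surface marker, had a log2 ratio of 1.67 (1.12 to 2.20) and Scd2, a fatty acid desaturase, 1.26 (1.06 to 1.47). Ly6d, a lymphocyte antigen also found on tumour hepatocytes, was at 1975 CPM in the patch and 823 CPM in the other spots. Afp, the fetal albumin homologue used as a tumour marker, was at 61.1 CPM in the patch and 53.2 in the other spots and Gpc3, another such marker, had 7 UMIs in the patch. The other spots include the H19 and Afp patch, described below, whose spots were picked in part for high Afp. The Afp level of the other spots is therefore partly set by that area. Sox9, of progenitor and duct cells, was at 3.91 CPM in the patch and 6.24 in the other spots with a log2 ratio of -0.67 (-1.36 to -0.05). Against pericentral-rich spots, described below, the same list had 8 members at least 2-fold higher and none at least 2-fold lower. Its median there was 1.14, and Sox9 turned to 0.12 and Cd24a to 0.51. The area is named here by its leading genes and not as a tumour. Ly6d, Afp, Gpc3, Alb and Apoe were picked for this check after their values were seen.

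Among 2934 genes with at least 50 CPM in the higher class, scoring genes left out, 158 (5.39%) were at least 2-fold higher in the patch and 141 (4.81%) at least 2-fold lower. The median log2 ratio over these genes was 0.17; with all ratios scaled to a median of 1, the counts were 116 higher and 192 lower. At 5 CPM and above, 555 of 10141 genes (5.47%) were at least 2-fold higher and 341 (3.36%) lower, and counts of list members below are read against these shares. The ratios of the leading genes were large: the 25 highest ran from 4.81-fold for Cyp2a5 to 13.9-fold for Sp5, and the 15 lowest from 4.01-fold lower for C8a to 7.66-fold lower for A2ml1. Of the 25, 3 belong to the NRF2 target list, 3 to the pericentral list, 1 to the Wnt feedback list, 1 to the proliferation list, 1 to the imprinted list and 1 to the stress response list. Of the 15, 6 belong to the periportal list and 2 to the acute phase list.

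**Figure D2:**
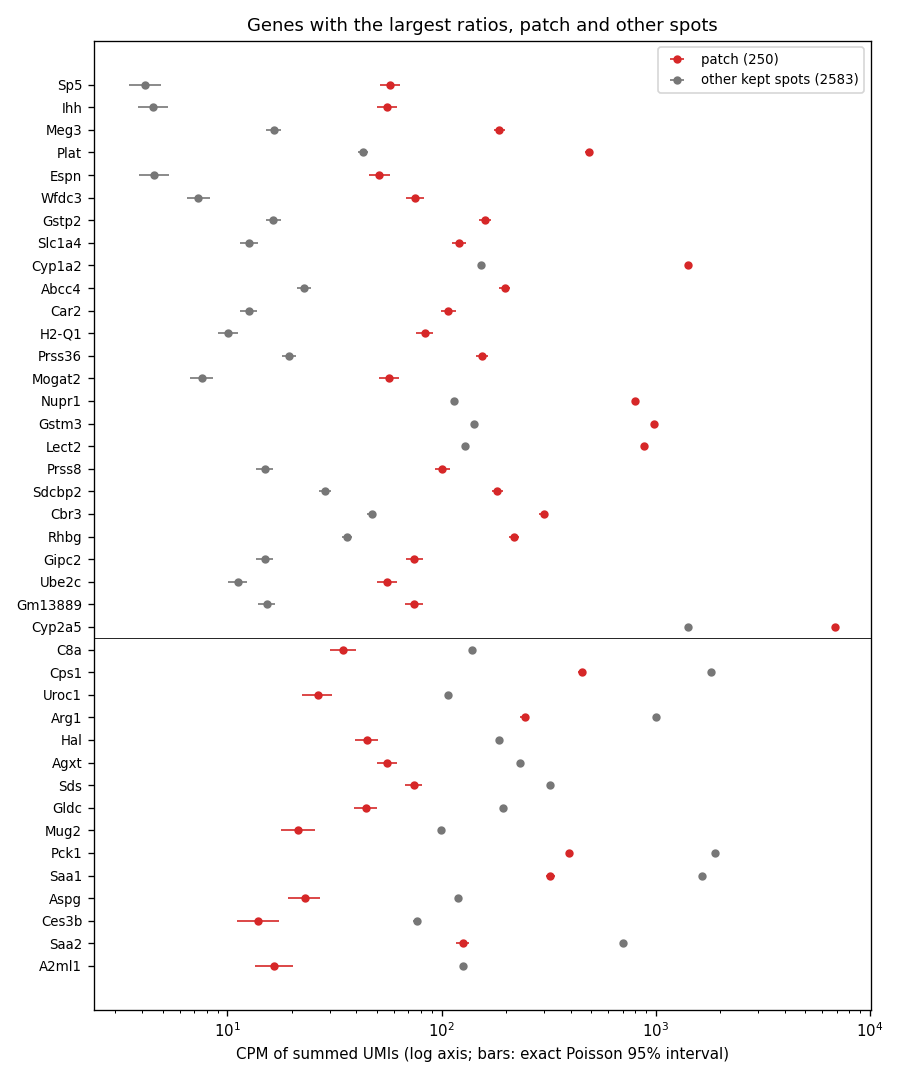
Levels in CPM (log axis) of the 25 genes with the highest and the 15 with the lowest ratio, in the 250 patch spots (red) and the 2583 other kept spots (grey), with exact Poisson 95% intervals. Sp5 is at 57.5 CPM in the patch against 4.13 in the other spots, and A2ml1 at 16.5 against 126; no interval of the patch meets that of the other spots.

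Genes of the Wnt feedback list stood highest of all lists by median. Of 13 genes, 11 reached 5 CPM, all 11 lay above 0 and 9 were at least 2-fold higher, with a median log2 ratio of 1.91. Sp5 (ENSMUSG00000075304; chromosome 2, 70474923 to 70477726 in GRCm38.p6), a zinc finger transcription factor induced by Wnt, had 338 UMIs in the patch and 141 elsewhere. Its level was 57.5 CPM in the patch (51.6 to 64.0) and 4.13 CPM in the other spots (3.48 to 4.87), a log2 ratio of 3.80 (3.51 to 4.09). At least 1 Sp5 UMI was seen in 63.6% of patch spots and 5.11% of other spots, and in 15% of patch spots and 1.3% of other spots when every spot was thinned to 3000 UMIs, which left out 16 patch spots and 350 others.

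Axin2, the scaffold of the complex that destroys β-catenin, followed at 44.6 CPM in the patch (39.4 to 50.3) and 5.77 CPM in the other spots (4.99 to 6.64). Lgr5, the receptor for R-spondins that strengthens Wnt signalling, stood at 14.1 CPM in the patch (11.3 to 17.5), against 1.61 CPM in the other spots (1.21 to 2.10). The ubiquitin ligases that remove Wnt receptors were also higher, Rnf43 with a log2 ratio of 1.71 (1.43 to 1.98) and Znrf3 with 1.27 (0.81 to 1.72). Notum, a secreted enzyme that inactivates Wnt ligands, was at 76.2 CPM in the patch and 26.6 CPM in the other spots, and Apcdd1, an inhibitor at the membrane, had 57 UMIs in the patch and 14 in the other spots. Apcdd1 was uneven within the patch, at 41.3 CPM in the sector of low rows and high columns and at 1.94 to 4.75 CPM in the other 3 sectors, into which the main piece is divided below. Tbx3, a transcription factor downstream of β-catenin in liver, had a log2 ratio of 1.94 (1.74 to 2.13) and Tcf7, one of the DNA-binding partners of β-catenin, 1.91 (1.42 to 2.40). The 2 members under 2-fold were Ccnd1, cyclin D1, at 0.67 (0.54 to 0.80), and Zfp703, a transcriptional repressor, at 0.73 (0.33 to 1.11). Lef1, with 10 UMIs in the patch, and Wif1, with 0, did not reach 5 CPM.

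To show what lies before the start sites of Sp5 and other leading genes, promoters of 300 bases (250 before to 50 after the start) were read from RefSeq's table for GRCm38.p6 and searched on both strands for CTTTGAT, the core sequence bound by TCF and LEF factors. Of the Wnt feedback list, 6 genes had a promoter in the table and 1, Sp5, held it. Of 17 of the 25 highest genes with a promoter there, 3 held it, Sp5 and, from outside that list, Lect2 and Ube2c, against 1160 of all 27025 genes (4.29%) and 3.73% of 32851 promoters. Of the 15 lowest, 12 had a promoter there and 1 held it. The match begins 104 bases before the start of Sp5, 32 before that of Lect2 and 62 before that of Ube2c. Those of Sp5 and Lect2, which had the higher ratios, are printed 5′ to 3′ on the strand of the gene, with the match in capitals, in Lect2 as its reverse complement. A match is a description and not a site shown to be bound.
Sp5 (chr2:70474673-70474972, plus strand): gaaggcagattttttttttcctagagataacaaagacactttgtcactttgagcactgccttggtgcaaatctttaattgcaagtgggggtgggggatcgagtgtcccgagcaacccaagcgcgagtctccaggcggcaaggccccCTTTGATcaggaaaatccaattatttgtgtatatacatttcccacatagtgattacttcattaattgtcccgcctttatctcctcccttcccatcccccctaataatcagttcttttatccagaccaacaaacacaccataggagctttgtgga
Lect2 (chr13:56548489-56548788, minus strand): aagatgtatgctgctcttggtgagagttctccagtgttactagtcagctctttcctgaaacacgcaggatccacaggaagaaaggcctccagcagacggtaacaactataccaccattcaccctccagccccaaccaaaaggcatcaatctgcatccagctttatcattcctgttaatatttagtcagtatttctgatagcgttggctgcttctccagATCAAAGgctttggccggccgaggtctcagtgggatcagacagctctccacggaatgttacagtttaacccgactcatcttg

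Lect2, a secreted protein of hepatocytes known as a target of β-catenin, was at 878 CPM in the patch (854 to 902) and 128 CPM in the other spots (125 to 132), a log2 ratio of 2.77 (2.72 to 2.83). Its spot values ran from 0 over a median of 811 to 2255 CPM in the patch, and from 0 over a median of 76.3 to 2857 CPM in the other spots. The ranges overlapped, but 98.6% of the other spots lay below the patch median.

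Pericentral hepatocyte genes were higher in most cases and not in all. All 15 genes reached 5 CPM, 11 were at least 2-fold higher, and the summed level was 18887 CPM in the patch and 6952 CPM in the other spots. Cyp1a2 (ENSMUSG00000032310; chromosome 9, 57676937 to 57683655 in GRCm38.p6), a cytochrome P450 that oxidises drugs and caffeine, led at 1416 CPM in the patch (1386 to 1447) and 153 CPM in the other spots (149 to 157), a log2 ratio of 3.21 (3.16 to 3.26). Per spot, Cyp1a2 ran from 0 over a median of 1301 to 3097 CPM in the patch and from 0 over 77.5 to 2476 CPM in the other spots, of which 99.6% were below the patch median. Cyp2a5, which oxidises coumarin and nicotine, reached 6842 CPM in the patch, 4.81 times the other spots. Its reads can be divided with the near-identical Cyp2a4, which went the other way with a log2 ratio of -0.85 (-0.93 to -0.76).

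Rhbg, an ammonium channel of the innermost pericentral ring, was at 217 CPM in the patch and 36.1 CPM in the other spots, with a log2 ratio of 2.59 (2.48 to 2.70). Glul, the glutamine synthetase of that ring, was at 1192 CPM in the patch and 327 CPM in the other spots, with 1.87 (1.82 to 1.91), and Oat, which feeds it with glutamate from ornithine, at 2517 CPM in the patch and 971 in the other spots; both were picked after their values were seen. The list also held genes that did not follow. Cyp2e1, the ethanol-oxidising cytochrome P450 of pericentral cells, was at 1761 CPM in the patch and 1803 CPM in the other spots (log2 ratio -0.03), and Cyp27a1, a sterol hydroxylase, had -0.06 (-0.17 to 0.04).

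The patch was next compared with pericentral-rich spots of the same section, a comparison chosen after seeing the data. These were the 250 spots at least 3 steps from the patch with the highest score for the 15 pericentral genes, and had a median of 8682 UMIs. Levels of the pericentral genes there are partly fixed by this choice and are given as a description. Cyp1a2 was at 1416 CPM in the patch and 302 CPM in the pericentral-rich spots, and Rhbg at 217 CPM in the patch and 73.0 CPM in the pericentral-rich spots. Cyp2e1 was at 1761 CPM in the patch and 3101 CPM in the pericentral-rich spots. Of the 11 Wnt feedback genes 8 were still at least 2-fold higher, with Sp5 at 57.5 CPM in the patch and 7.22 CPM in the pericentral-rich spots, and Axin2 at 44.6 CPM in the patch and 9.22 CPM in the pericentral-rich spots. With pericentral and scoring genes left out, 147 of 2940 genes (5%) were at least 2-fold higher in the patch than in these spots and 136 (4.63%) lower, with a median log2 ratio of 0.14. All of the 25 highest genes had a higher level in the patch than in the pericentral-rich spots, and all of the 15 lowest had a lower one. These genes were picked by their ratios to spots that include the pericentral-rich ones, so that order is a description.

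Periportal genes were lower. Of 17 genes, all reached 5 CPM and lay below 0, and 15 were at least 2-fold lower; the median log2 ratio was -1.79 and the summed level 2751 CPM in the patch and 9712 CPM in the other spots. Pck1, which commits carbon to glucose synthesis, was at 395 CPM in the patch (379 to 412) and 1899.7 CPM in the other spots (1885 to 1914), a log2 ratio of -2.26 (-2.32 to -2.20). Among the urea cycle enzymes, Cps1, which fixes ammonia, was at 450.3 CPM in the patch (433 to 468) and 1818 CPM in the other spots (1804 to 1832), and Arg1 (ENSMUSG00000019987; chromosome 10, 24915207 to 24927470 in GRCm38.p6), arginase, at 244 CPM in the patch (232 to 257) and 999 CPM in the other spots (988 to 1009.7). Per spot, Arg1 had a median of 226 CPM in the patch (0 to 1399) and 923 CPM in the other spots (0 to 4442), and 92.8% of the other spots lay above the patch median. Other low members of the list, named for their ratios, act in amino acid breakdown: Sds (serine) was at 74.0 CPM in the patch and 319 CPM in the other spots, Hal (histidine) at 44.8 CPM in the patch and 186 in the other spots and Uroc1 (the next step of histidine breakdown) at 26.4 CPM in the patch and 107 in the other spots. Etnppl, which breaks down phosphoethanolamine, was at 5.45 CPM in the patch and 29.5 in the other spots. The 2 members within 2-fold were Ctsc, a lysosomal protease, with -0.81 (-0.96 to -0.65), and Cdh1, E-cadherin, with -0.29 (-0.58 to -0.01). The sign of Cdh1 depended on the spots compared. It was at 19.6 CPM in the patch and 17.7 CPM in spots of no patch. In the H19 and Afp patch and the Cib3 and Akr1c18 patch, described below, it was at 57.7 and 60.8 CPM. Against pericentral-rich spots its log2 ratio was 0.97. Among the 15 lowest genes outside the list were Gldc (glycine), at 44.3 CPM in the patch and 194 CPM in the other spots, Agxt (alanine and glyoxylate), at 55.7 CPM in the patch and 233 in the other spots, and Aspg (asparagine), at 23.0 CPM in the patch and 119.7 in the other spots.

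**Figure D3:**
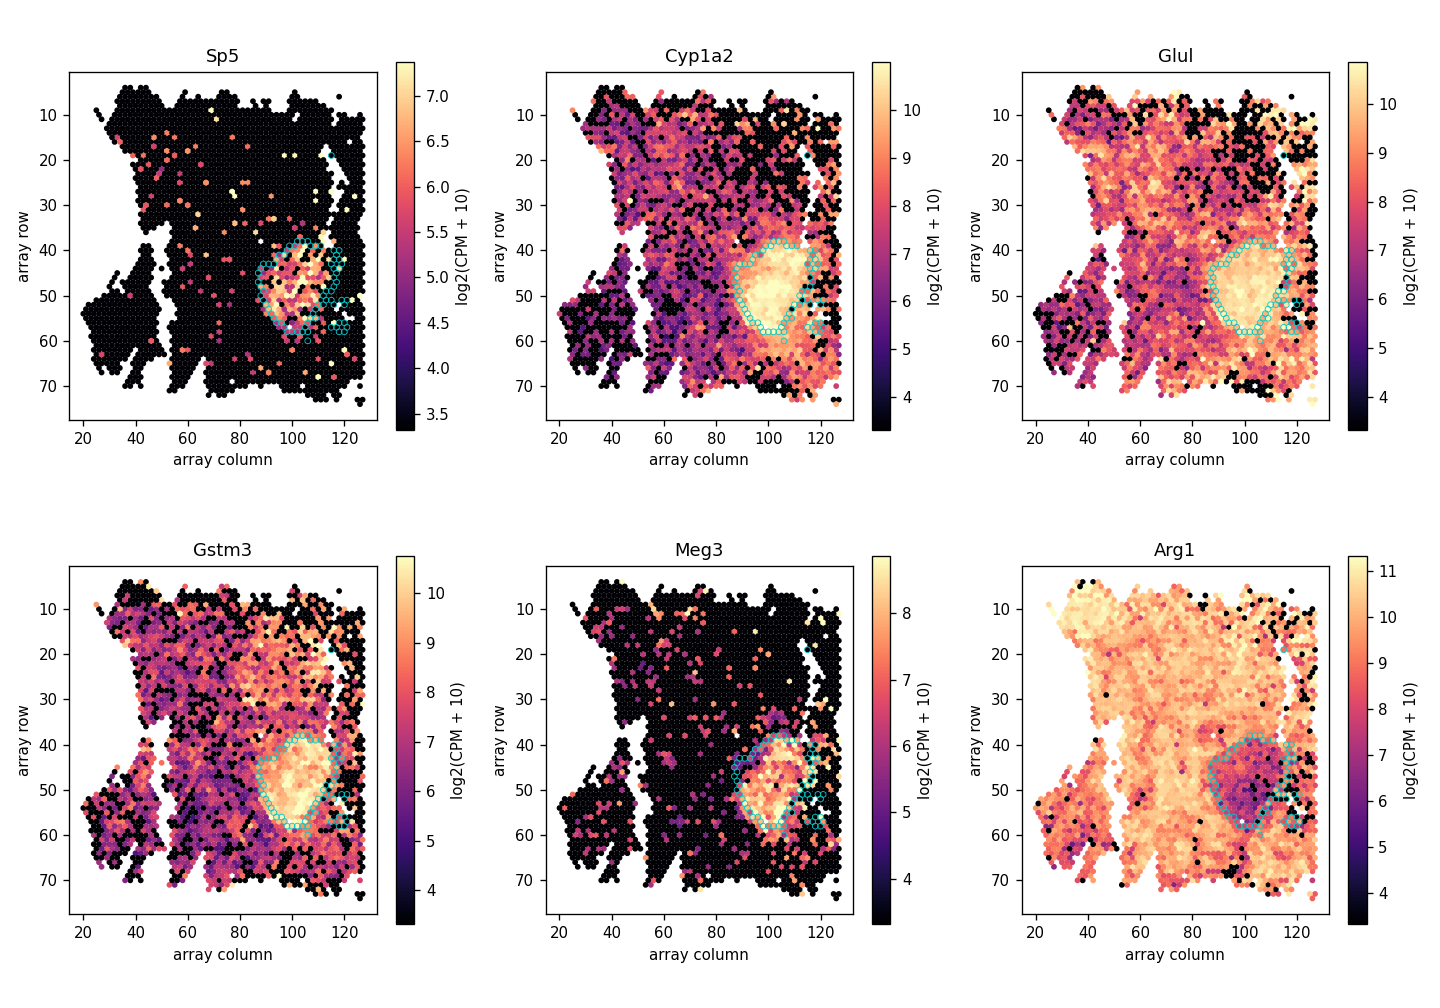
Levels of Sp5, Cyp1a2, Glul, Gstm3, Meg3 and Arg1 per kept spot of STAM20w, as log2(CPM + 10), at array columns and rows, with the outermost ring of patch spots circled. Sp5, Cyp1a2, Glul, Gstm3 and Meg3 are brightest inside the ring, where Arg1 is dim.

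NRF2 targets were higher without exception in direction. All 30 genes outside the score reached 5 CPM and lay above 0, 16 were at least 2-fold higher and none was 2-fold lower, with a median log2 ratio of 1.14 against 0.13 over all genes. Their summed level was 49903 CPM in the patch and 26773 CPM in the other spots. Osgin1, a growth inhibitor, had the lowest ratio, 0.05 (-0.01 to 0.11), the only one whose interval reached 0.

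By role, the glutathione transferases, which couple glutathione to electrophiles, come first. Gstm3 was at 982 CPM in the patch (957 to 1008) and 142 CPM in the other spots (138 to 146), a log2 ratio of 2.79 (2.73 to 2.84). Per spot its median was 851 CPM in the patch (0 to 2843) and 91.8 CPM in the other spots (0 to 2872). Gstm1 reached 5156 CPM in the patch and 1482 CPM in the other spots, and the lowest patch spot had 436 CPM. Gsta1, Gsta2, Gsta4 and Gstm2 had log2 ratios between 1.25 and 1.68, and Gstp1 had 0.86 (0.82 to 0.90). Gstp2, outside the list but among the 25 highest genes, was at 159 CPM in the patch and 16.4 CPM in the other spots. The Gstm, Gsta and Gstp genes have near copies whose reads can be divided or lost, so single values of these genes are uncertain.

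Glutathione synthesis was represented by the 2 subunits of its first enzyme, Gclc with a log2 ratio of 1.02 (0.94 to 1.11) and Gclm with 0.97 (0.90 to 1.03). Reductases followed: Srxn1, which repairs overoxidised peroxiredoxins, was at 424 CPM in the patch and 105 CPM in the other spots (log2 ratio 2.01, 1.94 to 2.09), Nqo1, a quinone reductase, at 136 CPM in the patch and 34.2 CPM in the other spots (log2 ratio 2.0, 1.86 to 2.13), Cbr3, a carbonyl reductase, at 300.4 CPM in the patch and 47.1 CPM in the other spots (log2 ratio 2.67, 2.58 to 2.77) and Txnrd1, thioredoxin reductase, at 253 CPM in the patch and 130.0 CPM in the other spots (log2 ratio 0.96, 0.87 to 1.04). Of the genes that supply NADPH, Tkt, a transketolase, had 1.69 (1.60 to 1.78), Me1, malic enzyme, 0.93 (0.84 to 1.02) and Pgd 0.93 (0.78 to 1.07), while G6pdx, with 45 UMIs in the patch, had 0.54 (0.03 to 1.02) and Taldo1 0.42 (0.33 to 0.50). Haem and iron genes were Hmox1, haem oxygenase, at 1.88 (1.75 to 2.0), Blvrb, biliverdin reductase B, at 1.31 (1.27 to 1.36), Slc48a1, a haem carrier, at 1.39 (1.3 to 1.48) and the ferritin genes Fth1, at 0.99 (0.98 to 1.0), and Ftl1, at 0.51 (0.50 to 0.52). The ferritin pair made up most of the summed level of the list, with 17267 CPM of Fth1 and 13708 CPM of Ftl1 in the patch. Abcc4 (ENSMUSG00000032849; chromosome 14, 118482692 to 118707856 in GRCm38.p6), an efflux pump for conjugated bile acids and drugs, had the highest ratio of the list, at 197 CPM in the patch (186 to 208) and 22.8 CPM in the other spots (21.2 to 24.5), a log2 ratio of 3.11 (2.98 to 3.24). Ugdh, which makes UDP-glucuronate for conjugation, was at 664 CPM in the patch and 219 CPM in the other spots (log2 ratio 1.60, 1.54 to 1.66).

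For these genes the same promoter table was searched on both strands for TGACNNNGC, the core of the antioxidant response element bound by NRF2, N being any base. Of 26 list genes with a promoter in it, 9 held the element (34.6%): Abcc4, Srxn1, Ugdh, Txnrd1, Gclm, Me1, Pgd, G6pdx and Prdx1. Of all genes 14% held it, and of all promoters 12.4%. Of the 25 highest genes, 1 of 17 with a promoter held it (5.88%), Abcc4, a share below that of all genes. Of the 15 lowest genes, 1 of 12 with a promoter held it. The 3 with the highest ratios in the patch are printed, 5′ to 3′ on the strand of the gene, with each match in capitals; a match read on the opposite strand appears as its reverse complement. It begins 25 bases before the start of Abcc4, the first match of Ugdh 132 bases before, and that of Srxn1 28 bases after the start. Abcc4 has 2 promoters with a match in the table, of which the first is printed, and these genes were picked after their values were seen.
Abcc4 (chr14:118706170-118706469, minus strand): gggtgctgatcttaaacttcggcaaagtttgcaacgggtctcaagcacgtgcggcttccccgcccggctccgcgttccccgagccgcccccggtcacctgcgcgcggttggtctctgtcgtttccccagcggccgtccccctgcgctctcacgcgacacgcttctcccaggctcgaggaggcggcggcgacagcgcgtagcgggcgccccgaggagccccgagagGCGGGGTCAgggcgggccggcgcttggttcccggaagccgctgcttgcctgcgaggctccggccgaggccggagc
Srxn1 (chr2:152105274-152105573, plus strand): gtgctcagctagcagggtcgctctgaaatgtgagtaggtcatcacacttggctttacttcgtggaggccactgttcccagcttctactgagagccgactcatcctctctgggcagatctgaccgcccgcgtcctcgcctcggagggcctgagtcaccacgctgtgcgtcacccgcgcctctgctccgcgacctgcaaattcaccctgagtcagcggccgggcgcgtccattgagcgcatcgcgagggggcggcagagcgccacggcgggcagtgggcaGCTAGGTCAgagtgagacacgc
Ugdh (chr5:65435793-65436092, minus strand): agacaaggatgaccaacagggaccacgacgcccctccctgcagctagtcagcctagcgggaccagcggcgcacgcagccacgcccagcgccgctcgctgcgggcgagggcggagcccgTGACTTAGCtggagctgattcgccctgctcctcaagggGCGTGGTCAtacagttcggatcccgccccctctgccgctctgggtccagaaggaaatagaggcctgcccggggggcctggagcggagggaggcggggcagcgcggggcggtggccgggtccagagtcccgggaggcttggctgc

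Other glutathione and selenium genes did not share this pattern: of 22, 21 reached 5 CPM, 3 were at least 2-fold higher, none lower, and the median was 0.39. Gpx3, the secreted glutathione peroxidase, had 1.37 (1.24 to 1.5) and Ggct, which breaks down γ-glutamyl peptides, 1.37 (1.20 to 1.54), whereas Gstk1, a peroxisomal transferase, had -0.76 (-0.88 to -0.64).

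Stress genes were mixed. Of 16 integrated stress response genes at 5 CPM, 5 were at least 2-fold higher and none lower, with a median of 0.27. Nupr1, a small chromatin protein induced by stress, was at 804 CPM in the patch (781 to 827) and 114 CPM in the other spots (110.4 to 118), a log2 ratio of 2.82 (2.76 to 2.88), and reached 10667 CPM in 1 patch spot and 10446 CPM in 1 of the others. Atf3, a stress-induced transcription factor, had 1.60 (1.41 to 1.79). Ddit3 and Trib3, which act in stress-induced cell death, had 1.58 and 1.60 and were picked after their values were seen. Asparagine synthetase, Asns, had -0.97 (-1.60 to -0.39) and Cth, of cysteine synthesis, -0.88 (-0.96 to -0.80). The ER chaperones and their relatives all lay below 0, 12 of 12, with a median of -0.49; Herpud1, of ER-associated degradation, had -1.11 (-1.21 to -1.0) and Xbp1, which drives chaperone genes, was at 154 CPM in the patch and 154 CPM in the other spots. Of 8 p53 targets at 5 CPM none passed 2-fold, but all lay above 0, with a median of 0.46 against 0.13 over all genes. They ran from Cdkn1a, the cell cycle inhibitor, at 0.12 (-0.07 to 0.32) to Gdf15, a stress-induced secreted factor, at 0.65 (0.54 to 0.76).

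Secreted proteins of the acute phase, made by hepatocytes under inflammatory cytokines, were lower. Of 15 genes 14 were at least 2-fold lower and none higher, with a median of -1.25. Saa1, serum amyloid A, was at 322 CPM in the patch (308 to 337) and 1643 CPM in the other spots (1629 to 1657), a log2 ratio of -2.35 (-2.42 to -2.29); per spot its median was 297 CPM in the patch (0 to 3602) and 992 CPM in the other spots (0 to 47721). Saa2, a near copy of it, had -2.48 (-2.59 to -2.37). Hamp, the iron hormone hepcidin, picked after its value was seen, was at 440.3 CPM in the patch and 1520.0 CPM in the other spots. The exception under 2-fold was C3, the central complement protein, with -0.62 (-0.64 to -0.60).

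Plasma proteins followed in part: 8 of 20 were at least 2-fold lower and 19 lay below 0, with a median of -0.89. Serpina1c, an α1-antitrypsin gene, had -1.70 (-1.75 to -1.65) and Fga, a fibrinogen chain, -1.46 (-1.5 to -1.42), while Apob, the protein of lipoprotein particles, had -0.08 (-0.12 to -0.04) and Rbp4, the retinol carrier, 0.10 (0.09 to 0.12). The summed level of the 20 was 89349 CPM in the patch and 136992 CPM in the other spots, and without the 20 most abundant genes in the totals the counts were 155 higher and 174 lower. A further group of secreted proteins stood among the 15 lowest genes, with A2ml1 and Mug2, protease inhibitors of the macroglobulin family, at 16.5 CPM in the patch and 126 CPM in the other spots and at 21.4 CPM in the patch and 99.5 CPM in the other spots, and C8a, of the complement pore, at 34.7 CPM in the patch and 139 CPM in the other spots. Ces3b, a carboxylesterase, completed them at 14 CPM in the patch and 76.4 CPM in the other spots. In the growth factor axis, Igf1 had -1.66 (-1.75 to -1.57) and Igfbp2, a binding protein, -1.97 (-2.05 to -1.89), while Igfbp1 and Igfbp4 had 0.32 and 0.07.

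Of 13 imprinted genes 8 reached 5 CPM, of which 4 lay above 0 and 4 below; 3 were at least 2-fold higher and 2 at least 2-fold lower, with a median of -0.08. The 3 higher ones, Meg3, Rian and Mirg, are noncoding RNAs of the Dlk1-Dio3 region. Meg3 (ENSMUSG00000021268; chromosome 12, 109540996 to 109571729 in GRCm38.p6) was at 186 CPM in the patch (175 to 198) and 16.5 CPM in the other spots (15.1 to 17.9), a log2 ratio of 3.5 (3.35 to 3.65), and per spot had a median of 157 CPM in the patch (0 to 1179) and 0 CPM in the other spots (0 to 858). Rian had 233 UMIs in the patch and 86 in the other spots, a log2 ratio of 3.98 (3.61 to 4.35), and Mirg, picked after its value was seen, had 78 UMIs in the patch and 43 in the other spots. Dlk1, the protein-coding gene of that region, had 0 UMIs in the patch and 1 elsewhere. The 2 lower ones were Peg3, a zinc finger gene, with -1.71 (-2.46 to -1.05), and H19, a noncoding RNA, with -1.57 (-2.06 to -1.12). The H19 ratio turned to 0.56 when the 2 other patches were left out of the other spots.

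The remaining genes among the 25 highest cover several functions. Plat, tissue plasminogen activator, a secreted protease, was at 487 CPM in the patch (469 to 505) and 43.1 CPM in the other spots (40.9 to 45.4), a log2 ratio of 3.5 (3.41 to 3.59), and per spot had a median of 399 CPM in the patch (0 to 3413) and 0 CPM in the other spots (0 to 2171). Ihh, the ligand Indian hedgehog, was at 55.8 CPM in the patch (49.9 to 62.2) and 4.51 CPM in the other spots (3.83 to 5.28). The serine proteases Prss36 and Prss8 were at 155 CPM in the patch and 19.5 CPM in the other spots and at 101 CPM in the patch and 14.9 CPM in the other spots, and Wfdc3, with a domain found in protease inhibitors, at 75.4 CPM in the patch and 7.32 in the other spots. Slc1a4, a carrier of neutral amino acids, was at 120.5 CPM in the patch and 12.7 CPM in the other spots (log2 ratio 3.25, 3.08 to 3.43) and Car2, a carbonic anhydrase, at 108 CPM in the patch and 12.6 CPM in the other spots (log2 ratio 3.10, 2.92 to 3.28). Mogat2, of triglyceride synthesis, was at 56.8 CPM in the patch and 7.59 in the other spots. Espn, an actin-bundling protein, was at 51.2 CPM in the patch and 4.54 in the other spots, and the PDZ-domain proteins Sdcbp2 and Gipc2 at 182 CPM in the patch and 28.4 in the other spots and at 74.7 CPM in the patch and 14.9 in the other spots. H2-Q1, a class I histocompatibility gene with near copies, was at 83.2 CPM in the patch and 10.1 CPM in the other spots, and Gm13889, a predicted gene, at 74.2 CPM in the patch and 15.2 in the other spots. Because Cpe trims peptide hormones in secretory granules, other granule genes were examined: 8 of 14 had 0 UMIs in the patch, which allows up to 3 UMIs in 5875623, among them Chga, Chgb and Pcsk2, which also had 0 in the other spots, and the 3 genes at 5 CPM, Cpn1, Cpd and Pam, lay between -0.57 and -0.43.

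Proliferation genes were higher by moderate ratios at low levels. Of 19 genes, all at 5 CPM and above 0, 9 were at least 2-fold higher, with a median of 0.91 and a summed level of 355 CPM in the patch and 168 CPM in the other spots. Ube2c, which marks mitotic regulators for destruction, was at 55.7 CPM in the patch (49.8 to 62.0) and 11.2 CPM in the other spots (10.1 to 12.4), and Ccnb1, cyclin B1, had 1.93 (1.47 to 2.38). The 2 lowest of the 19 were Mcm3, of the replicative helicase, at 0.30 (-0.26 to 0.82) and Tyms, thymidylate synthase, at 0.11 (-0.31 to 0.50). Myc was at 39.5 CPM in the patch (34.6 to 44.9) and 14.1 CPM in the other spots (12.9 to 15.4), a log2 ratio of 1.49 (1.25 to 1.72). Of 19 MYC family genes and targets at 5 CPM, Myc was the 1 past 2-fold, and the median was 0.43; Nop56, of ribosome assembly, had 0.92 (0.72 to 1.11) and Polr1b, an RNA polymerase I subunit, -0.07 (-0.41 to 0.26). Mycn, the MYC relative named in the title of the study, had 2 UMIs in the patch and 8 in the other spots, too few for a comparison.

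As a share of UMIs, markers of other liver cells were lower for most types, without being absent. Patch spots held a median of 24181.5 UMIs, against 11936 in the other spots. A lower share there does not by itself mean fewer marker UMIs or fewer of these cells per spot. All 14 endothelial markers lay below 0, with a median of -0.56 and a summed level of 432 CPM in the patch and 676 CPM in the other spots. All 10 Kupffer cell markers lay below 0, with a median of -0.79 and a summed level of 940.0 CPM in the patch and 1452 CPM in the other spots; Marco, a scavenger receptor, had -1.56 (-1.84 to -1.29). Stellate cell markers had a median of -0.60 (8 of 8 below 0, summed 367 CPM in the patch and 581 CPM in the other spots), and myofibroblast and matrix genes -0.61 (11 of 12 below 0, summed 312 CPM in the patch and 412 CPM in the other spots). Erythroid genes had a median of -0.69 and a summed level of 223 CPM in the patch and 349 CPM in the other spots. Whether lower shares of RNA from these cells set part of the higher ratios of hepatocyte genes was not tested.

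Exceptions stood out among these lists. Gpnmb and Lgals3, counted here as recruited macrophage markers though other cells also express them, had log2 ratios of 2.16 (1.98 to 2.34) and 1.33 (1.21 to 1.44), while Lyz2 had -0.70 (-0.81 to -0.59) and Trem2 -0.99 (-1.55 to -0.46) (10 genes, 7 at 5 CPM, summed 617 CPM in the patch and 455 CPM in the other spots). Krt19, a duct keratin, had 127 UMIs in the patch and 127 elsewhere, a log2 ratio of 2.54 (2.17 to 2.90), while 4 of the 7 cholangiocyte markers at 5 CPM lay below 0 and their summed level was 206 CPM in the patch and 234 CPM in the other spots; Cldn7 had -1.06 (-1.80 to -0.41). Ighm, an immunoglobulin heavy chain gene, was at 41.7 CPM in the patch and 14.4 CPM in the other spots, but Igkc had 32 and Ighg2b 12 UMIs in the patch, and Ms4a1, Ighg1 and Igha had 0 there. Of 13 T and NK cell markers, Ccl5 alone reached 5 CPM (log2 ratio -1.36, -1.89 to -0.88), and Cd4 and Cd8a had 0 UMIs in the patch. Neutrophil markers summed to 41.2 CPM in the patch and 68.7 CPM in the other spots, with S100a8 at -1.07 (-1.42 to -0.75). MHC class II and class I genes were close to level, with medians of -0.03 and -0.07, and interferon response genes had a median of -0.51.

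**Figure D4:**
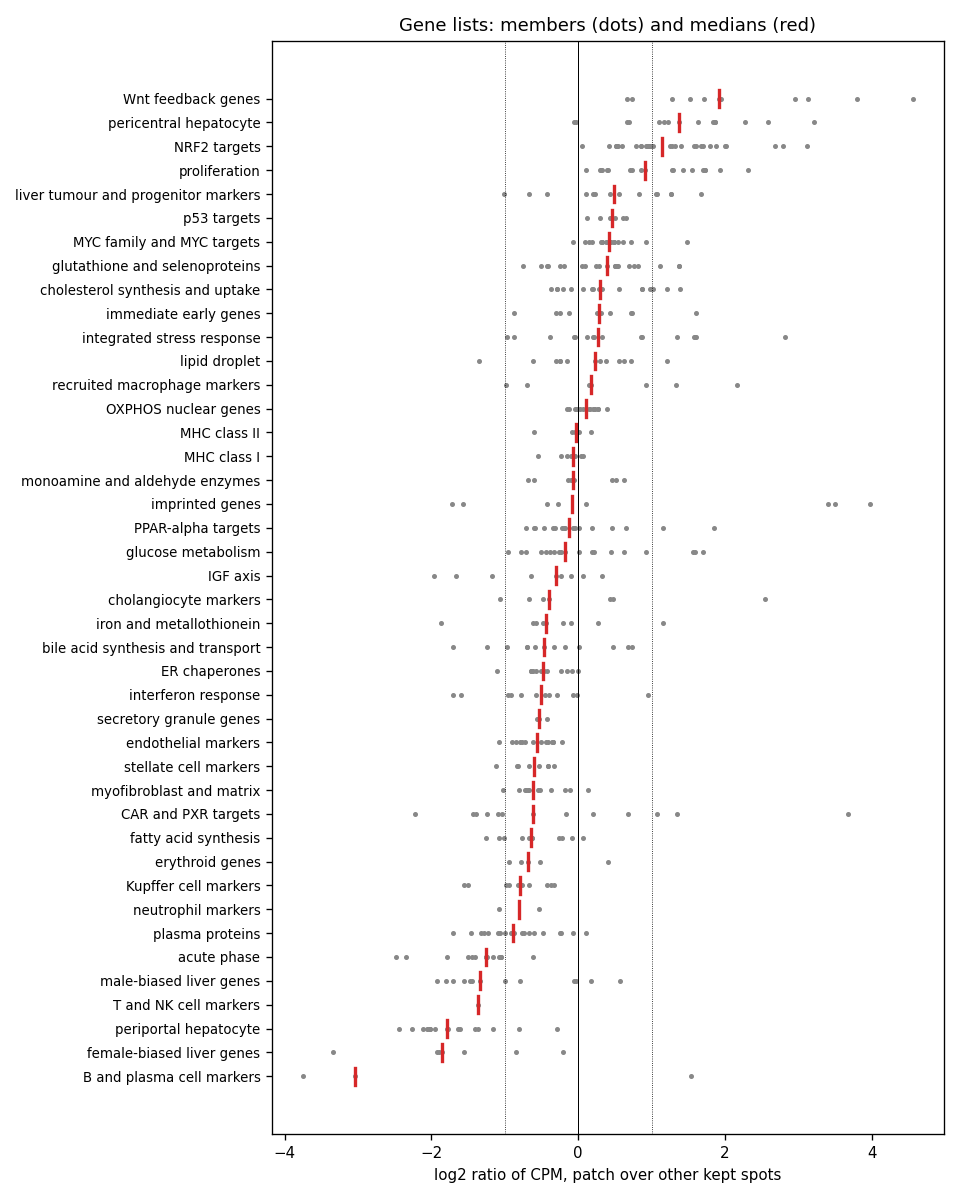
Log2 ratio of CPM, patch over other kept spots, for the members of 42 gene lists at 5 CPM or more in the higher class (dots) and the median of each list (red bars), scoring genes left out; dotted lines mark 2-fold. Wnt feedback (median 1.91), pericentral (1.37) and NRF2 target genes (1.14) are at the top, and periportal genes (-1.79) near the bottom.

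How sharp the patch is was described by levels at steps from its border, bearing in mind that the score averages over 1 step. Cyp1a2 was at 1669.9 CPM at 4 or more steps inside, 1061 at 1 step inside, 654 at 1 step outside, 333 at 2, 223 at 3 to 4, 164 at 5 to 8 and 103 at 9 or more. Sp5 was at 71.9, 28.3, 13.6, 9.13, 3.63, 4.27 and 3.30 CPM at the same distances. Both thus declined over several steps rather than at 1. Gstm3 had 1099 CPM at 4 or more steps inside, 411 at 1 step outside and 191 at 2 steps, against 118 CPM at 9 or more. Nupr1 had 487 CPM at 1 step inside, 391 at 1 step outside, 276 at 3 to 4 steps and 94.4 at 5 to 8. Pck1 was at 289 CPM at 4 or more steps inside, 665 at 1 step inside, 1114 at 1 step outside, 1591 at 2 steps and 1987 at 9 or more. Krt19 was concentrated in the core, with 38.5 CPM at 4 or more steps inside, 17.6 at 3, 7.03 at 2 and 6.30 at 1, against 13 at 1 step outside. Against the spots 1 to 4 steps outside alone, 105 genes were at least 2-fold higher and 108 lower.

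**Figure D5:**
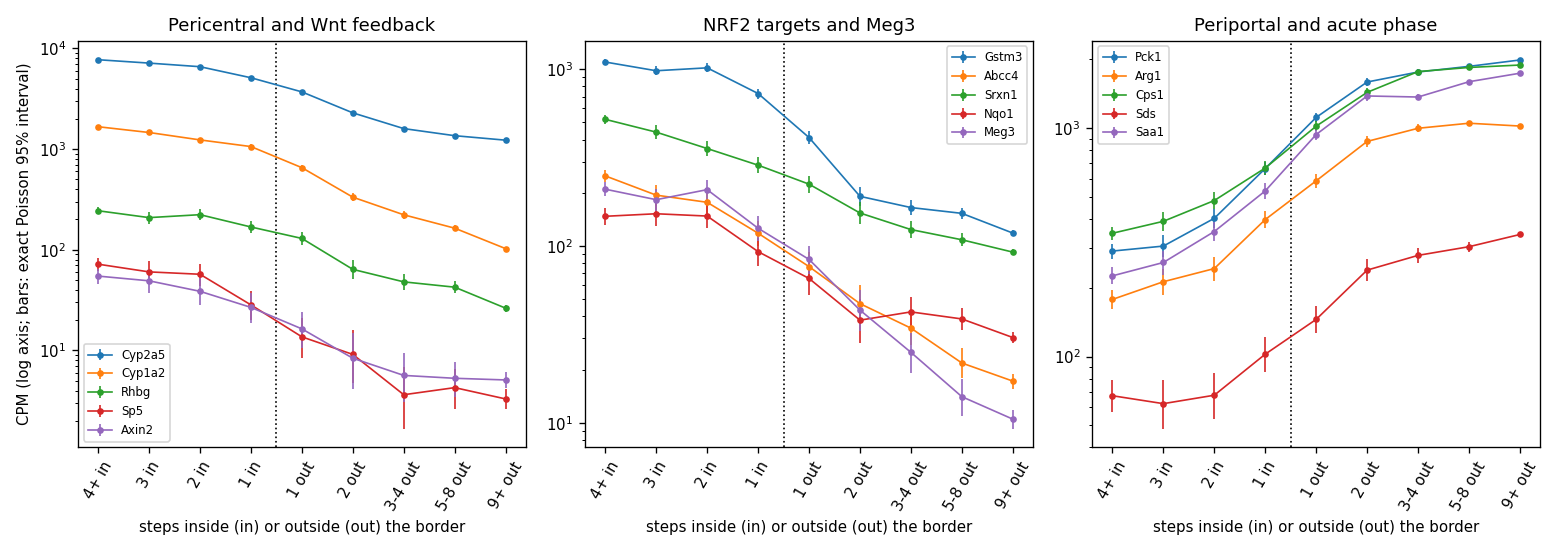
Level in CPM (log axis) of 15 genes against the number of steps inside (in) or outside (out) the patch border, marked by the dotted line; bars are exact Poisson 95% intervals. Pericentral, Wnt feedback, NRF2 target genes and Meg3 decline over 1 to 4 steps outside, and Pck1, Arg1, Cps1, Sds and Saa1 go up over the same distance.

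Within the patch the leading genes were spread over the whole main piece. The 237 spots were divided at the median row and column into 4 sectors of 55 to 64 spots. For all of the 25 highest genes the sector with the lowest level was above the spots 1 to 4 steps outside, and for all of the 15 lowest genes the sector with the highest level was below them. These genes were picked by ratios over the same spots, so this too is a description. The sectors differed by a median of 1.59 times for the 25 and 1.81 times for the 15. Lect2 was nearly even, with 852 to 911 CPM, and Sp5 had 48.5 to 64.4 CPM. Meg3 had 121 to 246 CPM, Gstp2 90.7 to 218 and Arg1 145 to 334, with Arg1 highest and Meg3 lowest in the sector of low rows and low columns.

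Across the 250 patch spots, log2(CPM + 100) of Gstm3 and Gstm1 had a Pearson r of 0.81, of Cyp2a5 and Gstm1 0.72 and of Cyp1a2 and Cyp2a5 0.67. Points share the library and a gradient of depth: Cyp1a2 and Cyp2a5 had r of 0.64 and 0.62 with the log2 UMI total of the spot. Nupr1 stood apart, with -0.06 with the UMI total and -0.56 with Mup20, a major urinary protein gene. These are descriptions over touching spots of 1 section.

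STAM20w held other compact areas, and those most like this one were picked by the same rule from H19, Afp, Cyp3a44, Fabp4 and Fabp5 and from Cib3, Akr1c18, Gsta1, Serpina12 and Serpinb6b, with 250 spots each. Neither shared a spot with the Cpe and Gpx2 patch; their nearest spots were 4 and 2 steps away, and they shared 10 spots with each other. All of the 25 highest genes had a higher level in the Cpe and Gpx2 patch than in either. Both areas lie among the other spots by which these genes were picked, so their order is a description. Cyp1a2 was at 1416 CPM in the Cpe and Gpx2 patch, 37.1 in the H19 and Afp patch, 96.4 in the Cib3 and Akr1c18 patch and 170.4 in spots of no patch. Axin2 was at 44.6 CPM in the Cpe and Gpx2 patch, 2.17 in the H19 and Afp patch, 5.18 in the Cib3 and Akr1c18 patch and 6.25 in spots of no patch. Gstm1 was at 5156 CPM in the Cpe and Gpx2 patch and 2674 in the Cib3 and Akr1c18 patch, above the 787 of the H19 and Afp patch and the 1508 of spots in no patch. Gstm3, Srxn1 and Nqo1 had the same order, with 382, 158 and 53.1 CPM in the Cib3 and Akr1c18 patch. Saa2, at 125 CPM in the Cpe and Gpx2 patch, was lower still in the H19 and Afp patch, at 94.6, the 1 of the 15 lowest genes with that order.

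No spot of the other sections reached the lowest patch score. The highest scores were 2.26 in STAM16w, 2.47 in DEN22w and 2.97 in DEN30w, and the 250 top spots there were scattered over 49, 58 and 48 pieces. All of the 25 highest genes had a higher level in the patch than in the whole of each other section. The 25 were picked for high ratios in the patch, and no such choice was made in the other sections. Gstm3 was at 982 CPM in the patch, 87.1 in STAM16w, 282 in DEN22w and 784 in DEN30w, and in the 250 top spots of DEN30w it stood at 983 CPM. Meg3 was at 186 CPM in the patch and, in the 250 top spots, at 62.5 in STAM16w, 109.7 in DEN22w and 175 in DEN30w. Plat was at 487 CPM in the patch, against 1.45, 4.05 and 8.08 CPM in whole STAM16w, DEN22w and DEN30w. Saa1 and Saa2, low in the patch, were lower in DEN22w, at 78.1 and 14 CPM, and high in DEN30w, at 7643 and 4912 CPM. With 1 section each, model, time, animal and slide cannot be told apart in these levels.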

How the data were processed

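The deposited counts are whole UMI counts per gene and spot. Per the submitters' processing notes, Space Ranger 1.3.1 and STAR were used with mm10; whether introns were counted is not given in the sources used here. Spots of at least 500 UMIs and 250 genes were kept. UMIs were summed over the patch and over the other kept spots and divided by each total (CPM), with exact Poisson intervals, and ratios got exact binomial intervals, all at 95%. Python 3.11.15, numpy 2.4.6, scipy 1.17.1, pandas 2.3.3 and matplotlib 3.10.9 were used, and the ratios and 2-fold counts were tested on simulated counts. The distance in steps between spots was tested on a small made grid, and the score was not tested on simulated data. Depth is given as UMIs per spot; kept spots had medians of 12761 UMIs in STAM20w, 9711.5 in STAM16w, 7302.5 in DEN22w and 9423 in DEN30w. With 1 section per group no comparison has a test.

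Named genes are the 25 highest and 15 lowest ratios among genes of at least 50 CPM in the higher class, up to 2 members at each end of each list among those of at least 5 CPM, all NRF2 targets and Wnt feedback genes, and Myc. Genes named outside this rule, such as Glul, Oat, Alb, Apoe, Ly6d, Afp, Gpc3, Ddit3, Trib3, Mirg, Dlk1, Hamp, Cd4, Cd8a, Igha, Ighg1, Ms4a1, Chga, Chgb, Pcsk2 and Mycn, were chosen after their values were seen. The score, the members and the lists were chosen with earlier results of these data known. Reads of near-identical genes (Gstm, Gsta, Gstp, Cyp2a, Cyp4a, Mup, Saa, H2-Q, immunoglobulin and haemoglobin genes) can be divided or lost. Alternatives covered scaling, level minimum, patch size, score, spot filter, depth and the choice of other spots.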

Additional observations from a re-analysis of the deposited data

How the results depend on the processing

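The 158 higher and 141 lower genes were recomputed under 24 settings, 3 of them chosen after seeing the data. The higher count moved by over 1.5 times with a level minimum of 20 CPM (269), 200 CPM (54) or none (1693), and against spots 1 to 4 steps outside (105). The lower count so moved with a minimum of 200 CPM (82) or none (1060), and with a patch of the top 400 spots (89). A change of minimum alters the number of genes counted; for the other settings the cause was not tested. The 25 highest genes were at least 2-fold higher in 525 of 525 alternative values (log2 1.23 to 4.24) and the 15 lowest at least 2-fold lower in 315 of 315 (-3.12 to -1.10). Both groups were picked by their extreme ratios in the main comparison, and most settings reuse its spots. Some of the 25, such as Sp5, met the 50 CPM minimum only in the patch. Passing 2-fold was thus largely set by that choice, and these counts are given as a description. Of 4617 alternative values of named genes, 105 (of 39 genes) had the sign opposite to the main value, and of 882 list medians 15 (of 7 lists) did, all of them medians within 2-fold. Among genes at least 2-fold different in the main comparison, 6 values turned in sign. H19 turned to 1.29 against spots 1 to 4 steps outside, 0.56 without the 2 other patches and 1.12 against pericentral-rich spots. Timp1 turned to 0.14 with the top 400 spots, Timd4 to 0.64 at 3000 UMIs per spot, and Cd24a to 0.51 against pericentral-rich spots. The median over all genes lay between 0 and 0.22. No paired analysis was possible because each group has 1 section. Genes of few UMIs, such as Timd4 with 17 in the patch, are limited by depth.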

Other observations

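Metabolic lists differed in direction among themselves. Cholesterol synthesis and uptake genes had a median log2 ratio of 0.30, with 3 of 18 at least 2-fold higher in the patch and none lower; Fdps, which makes farnesyl diphosphate, had 1.38 (1.3 to 1.47) and Cyp51, a sterol demethylase, 1.22 (1.05 to 1.38). Fatty acid synthesis genes had -0.64, with 3 of 12 at least 2-fold lower, among them Scd1, a desaturase, at -1.26 (-1.32 to -1.20) and Srebf1, its transcriptional regulator, at -1.08 (-1.26 to -0.89). Of 18 PPAR-alpha targets 2 were at least 2-fold higher, Cyp4a12a, with near copies, at 1.86 (1.63 to 2.08) and Pdk4, which restrains pyruvate oxidation, at 1.15 (1.02 to 1.29). In glucose metabolism Pklr, liver pyruvate kinase, was at 101 CPM in the patch and 31.0 CPM in the other spots and Hk2, a hexokinase of low level in normal hepatocytes, had 41 UMIs in the patch and 79 elsewhere. Cyp8b1, which shapes the bile acid mix, had -1.71 (-1.85 to -1.57) and Slc10a1, the bile acid uptake carrier, -1.25 (-1.35 to -1.14). Nuclear genes of oxidative phosphorylation were near level, with a median of 0.11 and none of 16 past 2-fold.

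Sex-biased genes had medians below 0, and drug-induced genes were mixed. Male-biased liver genes had a median of -1.34, with 7 of 13 at least 2-fold lower, and female-biased genes -1.86, with 5 of 7. Mup20 lay above 0 at 0.56 (0.54 to 0.59) and Mup12 below it at -1.81 (-2.23 to -1.41), and reads of Mup genes can be divided among near copies. Of 13 targets of the receptors CAR and PXR, 6 were at least 2-fold lower and 3 higher. Their median was -0.61, while their summed level was 3311 CPM in the patch and 3055 CPM in the other spots. Cyp2c55 had 103 UMIs in the patch and 47 elsewhere (log2 ratio 3.67, 3.16 to 4.20), and Cyp2c54 had -1.43 (-1.66 to -1.21). Cyp2c55 was at 22.3 CPM in DEN22w and 28.3 CPM in DEN30w as whole sections, above its 17.5 CPM in the patch. By chromosome, the median log2 ratio of genes at 50 CPM ran from 0.10 on chromosome 1 (163 genes) to 0.26 on chromosome 14 (102 genes).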
